A study of Mus musculus with 9 samples.

Results

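The genes described here encode the phagocyte NADPH oxidase, the enzyme with which macrophages and neutrophils make superoxide, and a mitochondrial enzyme that removes superoxide. They are *Cybb*, *Cyba*, *Ncf1*, *Ncf4*, *Rac2* and *Sod2*, taken with every non-control spot whose gene name in the scanner files is one of these symbols. This gave 6 genes measured by 7 probes on 16 spots per array, of 59305 non-control spots with 55681 probes and of 16462 genes that entered the tests. RNA of 9 samples was labelled with Cy3 and hybridised to single-colour Agilent arrays. All samples came from C57BL/6J mice. They form 3 groups of 3 arrays: control macrophages from the peritoneal exudate (PECs), F4/80high tumour-associated macrophages (TAMs) and F4/80low TAMs, both of the latter from a fibrosarcoma. No genotype, treatment, age or time point is given in the labels. The labels name a single surface marker for the division of the TAMs and no other gate, and tissue of origin and tumour differ together between TAMs and PECs, so their effects cannot be told apart. The samples of a group are described as biological replicates, but whether each came from a separate animal is not given, so each p-value reflects no more than how these samples vary, part of which could be technical.

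The oxidase is assembled from a membrane part and a cytosolic part. *Cybb* encodes NOX2, the catalytic chain that passes electrons from NADPH across the membrane to oxygen, and *Cyba* encodes the smaller membrane chain that stabilises it. On activation the cytosolic proteins encoded by genes such as *Ncf1* and *Ncf4* and a Rac GTPase, in phagocytes often the product of *Rac2*, join the membrane part. The superoxide formed serves microbial killing and signalling. *Sod2* encodes the manganese superoxide dismutase of mitochondria, a gene known to respond to inflammatory signals.

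The promoters of all members with an entry are shown, with *Ncf1*, which passed no test, beside *Cybb*, *Cyba* and *Sod2*, so that the genes can be compared by sequence. Of the 6 genes, 4 had an entry in the RefSeq promoter table (GRCm38.p6), and *Ncf4* and *Rac2* had none. Each sequence is the 250 bases upstream of the start, on the strand of the gene, and capitals mark matches on either strand to 5 motifs: GAGGAA (Ets and PU.1 core), GGGNNTTCC (NF-kappaB), TTCNNNGAA (gamma-activated site), the interferon-stimulated response element (GAAA, any 2 bases, GAAA) and TGANTCA (AP-1). The *Cybb* promoter lies at chrX:9469325-9469574 (minus strand), that of *Cyba* at chr8:122432941-122433190 (minus strand), that of *Ncf1* at chr5:134229626-134229875 (minus strand) and that of *Sod2* at chr17:13007589-13007838 (plus strand).
Cybb: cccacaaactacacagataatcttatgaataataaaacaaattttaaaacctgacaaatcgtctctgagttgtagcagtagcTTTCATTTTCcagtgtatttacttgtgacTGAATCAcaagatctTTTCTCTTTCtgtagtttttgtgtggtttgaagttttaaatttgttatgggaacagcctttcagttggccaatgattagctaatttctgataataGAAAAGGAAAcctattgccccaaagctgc
Cyba: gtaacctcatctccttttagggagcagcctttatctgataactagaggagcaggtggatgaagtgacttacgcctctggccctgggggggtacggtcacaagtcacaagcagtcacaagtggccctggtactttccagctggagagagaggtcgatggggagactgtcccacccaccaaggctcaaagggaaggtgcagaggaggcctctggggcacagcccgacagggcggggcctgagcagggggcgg
Ncf1: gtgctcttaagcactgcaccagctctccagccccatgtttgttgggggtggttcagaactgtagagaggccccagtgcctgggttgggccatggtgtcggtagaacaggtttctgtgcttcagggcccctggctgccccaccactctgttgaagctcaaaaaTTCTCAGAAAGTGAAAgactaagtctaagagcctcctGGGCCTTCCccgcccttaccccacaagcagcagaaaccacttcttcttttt
Sod2: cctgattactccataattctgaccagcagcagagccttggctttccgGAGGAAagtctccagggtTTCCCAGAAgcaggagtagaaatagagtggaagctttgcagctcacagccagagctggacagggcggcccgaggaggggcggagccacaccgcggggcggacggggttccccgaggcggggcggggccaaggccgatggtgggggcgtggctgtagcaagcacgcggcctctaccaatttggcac
In the *Cybb* sequence the interferon-stimulated response element matched 3 times, first base 29 bases before the start on the gene's strand and 124 and 168 bases before it on the other strand, and TGANTCA matched 139 bases before it. A further stretch of *Cybb*, the first 24 bases after the start (chrX:9469301-9469324), held GAGGAA on the other strand, shown in capitals.
Cybb after the start: tgttttcatTTCCTCatcagaaga
The *Sod2* sequence held GAGGAA 203 bases and TTCNNNGAA 185 bases before the start. The *Ncf1* sequence held GGGNNTTCC 51 bases, TTCNNNGAA 88 bases and the interferon-stimulated response element 82 bases before the start, the last pair overlapping. The *Cyba* sequence held 0 matches to the 5 motifs. Over the 32851 promoters of the table, the same upstream window held the interferon-stimulated response element in 2.98%, TGANTCA in 6.75%, GGGNNTTCC in 4.98%, GAGGAA in 23.3% and TTCNNNGAA in 7.02%. A match describes letters and is not a measured site. The 24 *Cybb* bases were read from windows of 300 bases that reach past the start, and are shown because they hold GAGGAA. Of the whole windows 28.3% held GAGGAA, and the share for the bases after the start alone was not determined.

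All levels are log2 intensities relative to the array's own 75th percentile, which is at 0, so a level is compared between groups for the same probe and never between probes. All 7 probes were well above background on all 9 arrays and none was saturated. On mouse build mm9 the probe used for *Cybb* lies at chrX:9013216-9013275, that of *Ncf1* at chr5:134696380-134696439, that of *Ncf4* at chr15:78092903-78092962, that of *Rac2* at chr15:78391452-78391511 and that of *Sod2* at chr17:13208074-13208133. *Cyba* had a probe at chr8:124948726-124948785, the brighter, which stands for the gene. A further 60-base *Cyba* probe is split over chr8:124950893-124951161, an interval of 269 bases with a gap of 209 bases. It is shown because it gives a separate measurement of the same gene.
Cyba probe: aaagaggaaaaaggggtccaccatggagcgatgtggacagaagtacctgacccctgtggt
Which exons or untranslated regions hold the probes was not analysed here.

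Well above background, across the arrays, were 36.1% to 38.3% of spots other than controls, and the 75th percentile lay at intensities of 53.5 to 97.3. A pair of slides held the arrays: PEC replicate 1 and all 6 TAM arrays share slide 1, and PEC replicates 2 and 3 are on slide 2. *Adgre1*, the gene of the sorting marker, was at 5.77, 5.71 and 6.17 in PECs, at 6.21, 5.89 and 5.70 in F4/80high TAMs and at 2.78, 3.44 and 2.45 in F4/80low TAMs. Of 7 macrophage markers, 7 were above background on all PEC arrays and on all F4/80high arrays and 6 on all F4/80low arrays. *Mertk*, a receptor for dying cells, was above background on none of the F4/80low arrays. The share of genes past the threshold that were higher was 47.2% in F4/80high TAMs against PECs, 43.8% in the F4/80low comparison with PECs and 57.1% between the TAM subsets. Centring the arrays on their medians gave 39.6%, 22.1% and 75.9% and moved the median difference of all genes from -0.09 to -0.56 between F4/80low TAMs and PECs and from 0.08 to 0.40 between the TAM subsets.

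In the membrane part of the oxidase, *Cyba* was lower in both TAM subsets than in PECs, and *Cybb* differed between the subsets. *Cyba* fell in F4/80high TAMs and fell further in F4/80low TAMs. *Cybb*, the catalytic chain, was 3.56-fold higher in F4/80high than in F4/80low TAMs, with the PEC mean between theirs.

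The *Cybb* level was 4.50, 4.0 and 4.51 on the PEC arrays (replicates 1, 2 and 3; mean 4.34 ± 0.29, SD, n = 3). It was 5.34, 5.51 and 4.77 on the F4/80high arrays (5.20 ± 0.39, SD, n = 3) and 4.22, 3.25 and 2.64 on the F4/80low arrays (3.37 ± 0.79, SD, n = 3). All F4/80high arrays lay above all others, while the F4/80low arrays reached into the PEC range. The difference between F4/80high and F4/80low TAMs was 1.83 (SE 0.38, 95% interval 0.98 to 2.69, limma adjusted p = 0.00557). Against PECs, *Cybb* in F4/80high TAMs differed by 0.87 (SE 0.38, 95% interval 0.01 to 1.73), which did not pass the threshold after adjustment (limma adjusted p = 0.0802), although the arrays did not overlap. For F4/80low TAMs the difference from PECs was -0.96 (SE 0.38, 95% interval -1.82 to -0.11, limma adjusted p = 0.0583), which also missed the threshold. The call between subsets held without each array in turn, with differences of 1.47 to 2.26. The differences from PECs passed without a single array of F4/80low TAMs: that of F4/80high TAMs without F4/80low replicate 1 (0.87, limma adjusted p = 0.0227) or replicate 3 (limma adjusted p = 0.0429), and that of F4/80low TAMs without replicate 1 (-1.39, limma adjusted p = 0.00542). In bulk samples such as these, fewer cells of a type and less RNA per cell cannot be told apart.

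The *Cyba* level was 9.93, 9.99 and 10.01 on the PEC arrays (9.98 ± 0.041, SD, n = 3). It was 8.94, 8.81 and 8.68 on the F4/80high arrays (8.81 ± 0.13, SD, n = 3) and 8.34, 7.60 and 7.85 on the F4/80low arrays (7.93 ± 0.38, SD, n = 3). The groups fell into 3 ranges without overlap, PECs highest and F4/80low TAMs lowest. Against PECs *Cyba* was 2.25-fold lower in F4/80high TAMs (log2 difference -1.17, SE 0.20, 95% interval -1.63 to -0.71, limma adjusted p = 0.0012). In the F4/80low subset it was 4.13-fold lower (-2.04, SE 0.20, 95% interval -2.50 to -1.59, limma adjusted p = 5.94e-05). Between the subsets *Cyba* was 1.84-fold higher in F4/80high TAMs (0.88, SE 0.20, 95% interval 0.42 to 1.34, limma adjusted p = 0.00987). The split probe gave 7.18, 7.27 and 7.47 in PECs, 6.30, 6.02 and 5.89 in F4/80high TAMs and 5.72, 4.59 and 4.91 in F4/80low TAMs. With each probe as its own unit its differences were -1.24 (SE 0.28, limma adjusted p = 0.005) in F4/80high TAMs and -2.23 (SE 0.28, limma adjusted p = 0.000216) in F4/80low TAMs, each relative to PECs, and 1.00 (SE 0.28, limma adjusted p = 0.0233) between the subsets. Both probes therefore gave the order PECs, F4/80high TAMs, F4/80low TAMs. Within slide 1, where PEC replicate 1 is the lone control and is assumed to vary like the TAM arrays, *Cyba* differed by -1.12 in F4/80high TAMs (limma adjusted p = 0.039) and by -2.00 in F4/80low TAMs (limma adjusted p = 0.00584).

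The difference between the *Cybb* and *Cyba* probe levels is also described for each array. The *Cybb* level minus the *Cyba* level was -5.43, -5.98 and -5.51 on the PEC arrays, -3.60, -3.29 and -3.92 on the F4/80high arrays and -4.12, -4.34 and -5.21 on the F4/80low arrays. This difference of probe levels is not a ratio of transcripts, but it moves with their relative change: the F4/80high arrays lay above all others and the PEC arrays below all others. It was computed after the levels were seen and carries no test.

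**Figure D1:**
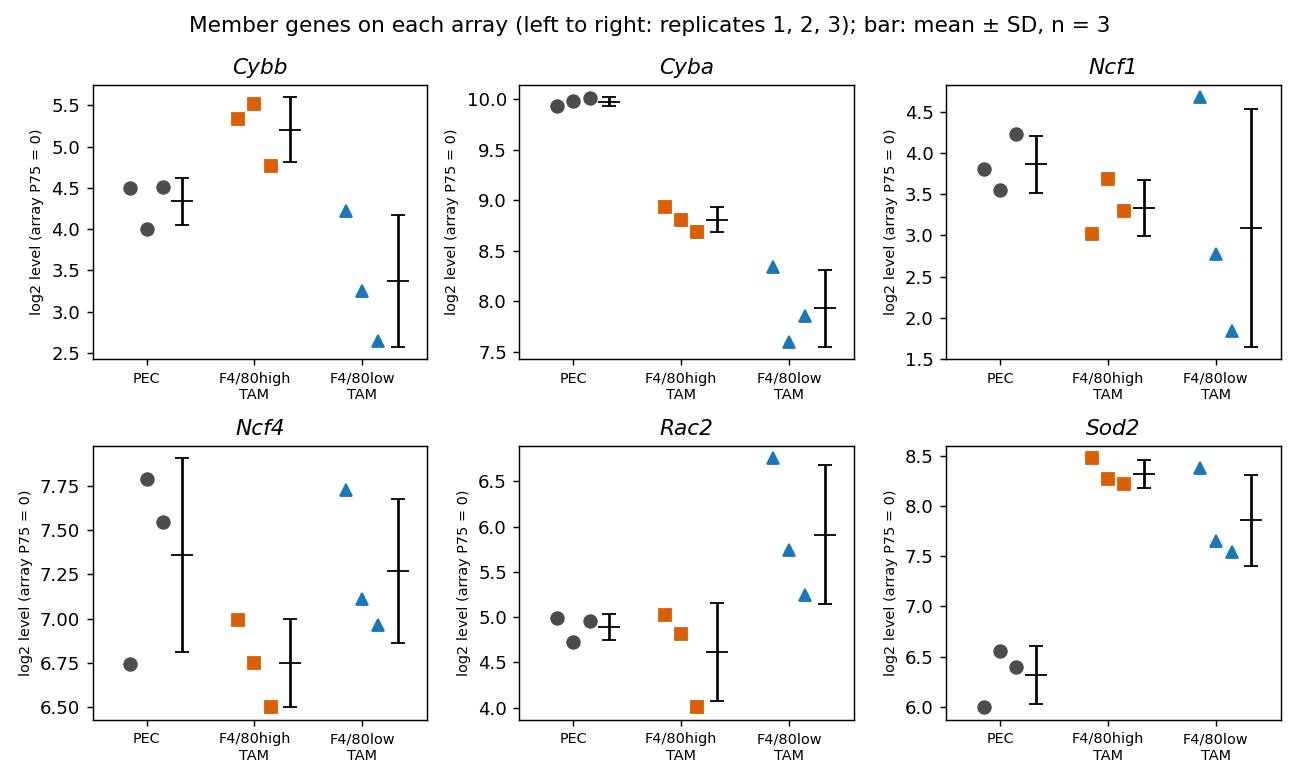
Level of each of the 6 genes on each array (log2 intensity, array's 75th percentile at 0), 3 arrays in each of PECs, F4/80high TAMs and F4/80low TAMs, with the bar at the mean and its error bar the SD. *Cyba* steps down from 9.98 in PECs to 8.81 and 7.93, *Sod2* steps up from 6.32 to 8.32 and 7.86, and replicate 1 of F4/80low TAMs is the highest of its group for all 6 genes.

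Among the cytosolic subunits no difference passed the threshold in the 3 comparisons. *Ncf1* encodes the organiser subunit that carries the phosphorylation switch of the complex. Its level was 3.80, 3.56 and 4.23 on the PEC arrays (3.86 ± 0.34, SD, n = 3) and 3.02, 3.69 and 3.29 on the F4/80high arrays (3.34 ± 0.34, SD, n = 3). On the F4/80low arrays it was 4.68, 2.77 and 1.84 (3.10 ± 1.45, SD, n = 3). The F4/80low arrays thus ran from the highest to the lowest *Ncf1* level of all 9. The *Ncf1* difference from PECs was -0.53 in F4/80high TAMs (SE 0.60, 95% interval -1.87 to 0.81, limma adjusted p = 0.478). That of F4/80low TAMs was -0.77 (SE 0.60, 95% interval -2.11 to 0.57, limma adjusted p = 0.303). Between the subsets it was 0.24 (SE 0.60, 95% interval -1.10 to 1.58, limma adjusted p = 0.795). The interval between the subsets holds changes of more than 1 log2 unit either way, and the SE of 0.60 lay above the median SE of all genes (0.236). Without F4/80low replicate 1, *Ncf1* was lower in F4/80low TAMs than in PECs (-1.56, limma adjusted p = 0.00536) and higher in F4/80high than in F4/80low TAMs (1.03, limma adjusted p = 0.0484).

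*Ncf4*, whose product binds phosphoinositides on phagosomes, was at 6.74, 7.79 and 7.55 on the PEC arrays (7.36 ± 0.55, SD, n = 3). It was at 6.99, 6.75 and 6.50 on the F4/80high arrays (6.75 ± 0.25, SD, n = 3) and at 7.73, 7.11 and 6.96 on the F4/80low arrays (7.27 ± 0.41, SD, n = 3). All 3 groups overlapped. The *Ncf4* difference from PECs was -0.61 in F4/80high TAMs (SE 0.31, 95% interval -1.30 to 0.08, limma adjusted p = 0.121). That of F4/80low TAMs was -0.09 (SE 0.31, 95% interval -0.78 to 0.60, limma adjusted p = 0.82), and between the subsets -0.52 (SE 0.31, 95% interval -1.21 to 0.17, limma adjusted p = 0.232). PEC replicate 1, the control on the TAM slide, was the lowest of the PECs for *Ncf4*. Without it the F4/80high difference was -0.92 and passed (limma adjusted p = 0.0212), and within slide 1 the differences from PECs were 0.00 and 0.52.

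*Rac2*, the GTPase largely restricted to blood cells, was higher in F4/80low than in F4/80high TAMs. Its level was 4.99, 4.73 and 4.96 on the PEC arrays (4.89 ± 0.14, SD, n = 3) and 5.03, 4.82 and 4.0 on the F4/80high arrays (4.62 ± 0.54, SD, n = 3). On the F4/80low arrays it was 6.76, 5.74 and 5.24 (5.91 ± 0.77, SD, n = 3). All F4/80low arrays lay above all others, and PECs and F4/80high TAMs overlapped. F4/80high and F4/80low TAMs differed by -1.30, a level 2.46-fold higher in F4/80low TAMs (SE 0.39, 95% interval -2.17 to -0.42, limma adjusted p = 0.0298). Against PECs *Rac2* differed by 1.02 in F4/80low TAMs (SE 0.39, 95% interval 0.15 to 1.89, limma adjusted p = 0.0509) and by -0.28 in F4/80high TAMs (SE 0.39, 95% interval -1.15 to 0.60, limma adjusted p = 0.573), neither past the threshold. The *Rac2* probe has 10 spots on each array, of which 9 or 10 were used. Their SD within an array was 0.0634 to 0.102, and the spread between arrays of a TAM subset exceeded that between spots. The call between subsets was lost without F4/80high replicate 2 (-1.40, limma adjusted p = 0.0581) or replicate 3 (-0.99, limma adjusted p = 0.0982) and without F4/80low replicate 1 (-0.88, limma adjusted p = 0.0676) or replicate 2 (-1.38, limma adjusted p = 0.0535). The F4/80low difference from PECs passed without F4/80high replicate 3 (limma adjusted p = 0.0386) or F4/80low replicate 3 (1.36, limma adjusted p = 0.0186).

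*Sod2*, the mitochondrial dismutase, rose in both TAM subsets. Its level was 5.99, 6.56 and 6.40 on the PEC arrays (6.32 ± 0.29, SD, n = 3). It was 8.48, 8.27 and 8.22 on the F4/80high arrays (8.32 ± 0.14, SD, n = 3) and 8.38, 7.66 and 7.54 on the F4/80low arrays (7.86 ± 0.45, SD, n = 3). All 6 TAM arrays lay above all PEC arrays, and the TAM subsets overlapped. *Sod2* was 4.02-fold higher in F4/80high TAMs than in PECs (2.01, SE 0.25, 95% interval 1.44 to 2.57, limma adjusted p = 0.000163) and 2.91-fold higher in F4/80low TAMs (1.54, SE 0.25, 95% interval 0.98 to 2.11, limma adjusted p = 0.000967). Between the subsets the *Sod2* difference was 0.47 (SE 0.25, 95% interval -0.10 to 1.03, limma adjusted p = 0.192), and without F4/80low replicate 1 it was 0.73 and passed (limma adjusted p = 0.0332). Within slide 1 the differences from PECs were 2.33 (limma adjusted p = 0.00385) and 1.86 (limma adjusted p = 0.0111).

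Counted together, 2 of the 6 genes passed between F4/80high TAMs and PECs, *Sod2* higher and *Cyba* lower, where 53.1% of all genes tested passed (25.0% higher and 28.0% lower). For F4/80low TAMs and PECs the same genes passed in the same directions, 2 of 6, against 51.9% of all genes (22.7% higher and 29.2% lower). Between the TAM subsets 3 of 6 passed, *Cybb* and *Cyba* higher in F4/80high and *Rac2* lower, against 32.6% of all genes (18.6% higher and 14.0% lower). Arrays of the compared groups did not overlap for 3 of the 6 genes in each comparison, where 65.2%, 59.3% and 46.7% of all genes did not overlap. With changes this widespread, these counts do not set the 6 genes apart. The median difference of the 6 genes was -0.40 between F4/80high TAMs and PECs, -0.43 between F4/80low TAMs and PECs and 0.35 between the subsets, beside 0.00, -0.09 and 0.08 for all genes. Both comparisons with PECs use the same control arrays.

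**Figure D2:**
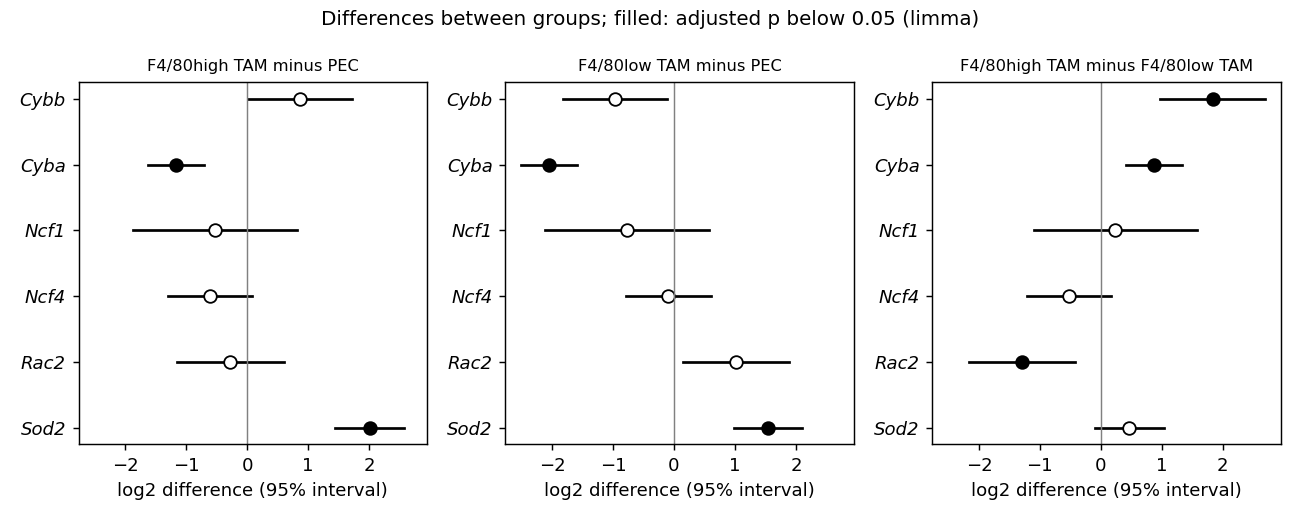
Log2 difference of each gene in the 3 comparisons with its 95% interval from limma (n = 3 arrays a group), filled where the adjusted p is below 0.05. *Cyba* (-1.17 and -2.04) and *Sod2* (2.01 and 1.54) pass against PECs in both TAM subsets, and *Cybb*, *Cyba* and *Rac2* pass between the subsets.

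The other genes of the pathway were followed through 2 larger lists. Of 16 partners and regulators of the oxidase, all tested, 7 fell and 0 rose in F4/80high TAMs against PECs, and 6 fell and 0 rose in F4/80low TAMs. Of all genes 28.0% and 29.2% fell and 25.0% and 22.7% rose in these comparisons. The list's median differences were -0.52 and -0.60, beside 0.00 and -0.09 for all genes. *Rap1a* entered the test through the TAM arrays, as it was above background on 1 PEC array. Between the subsets 1 was higher and 2 were lower in F4/80high TAMs, beside 18.6% and 14.0% of all genes. The list's median difference there was 0.26, beside 0.08 for all genes. With the replicate number as a block, which pairs the TAM arrays, 1 was lower. The 6 became 10 without F4/80low replicate 1, 12 with median centring and 11 with normexp background correction. Without PEC replicate 1, 1 rose in each TAM subset and 2 were higher in F4/80high than in F4/80low TAMs.

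*Hvcn1*, the voltage-gated proton channel that carries the charge compensating the oxidase, showed the largest difference of this list. Its level was 6.29, 6.51 and 6.53 in PECs, 4.37, 3.56 and 3.33 in F4/80high TAMs and 3.13, 2.38 and 1.94 in F4/80low TAMs. It was 6.43-fold lower in F4/80high TAMs (-2.69, SE 0.34, limma adjusted p = 0.000182) and 15.5-fold lower in F4/80low TAMs (-3.96, SE 0.34, limma adjusted p = 2.58e-05). *Itgb2*, the beta chain of leukocyte integrins, fell by 2.61 and 2.05 on the log2 scale (limma adjusted p = 6.39e-06 and 3.44e-05). *Dock2*, an activator of Rac GTPases in leukocytes, fell by 1.71 and 2.41 (limma adjusted p = 0.000637 and 0.000112). *Prkcb*, a protein kinase C that phosphorylates the organiser subunit, fell by 1.93 and 2.19 (limma adjusted p = 0.000469 and 0.000284). In these 4 genes no TAM array reached the PEC range, and their differences from PECs also passed in the fit blocked on slide and on the arrays of slide 1 alone.

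*Rac1*, the widely expressed relative of *Rac2*, is named after its values were seen. It differed from PECs by -0.05 in F4/80high TAMs (limma adjusted p = 0.825) and fell by 0.50 in F4/80low TAMs (limma adjusted p = 0.026).

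Of 14 genes that remove superoxide or peroxide, 13 were tested. In F4/80high TAMs against PECs 8 fell and 1 rose, with a median difference of -0.76, and in F4/80low TAMs 6 fell and 0 rose, with a median of -0.54, beside the same shares and medians of all genes as above. Within slide 1 the 8 became 4 and the 6 became 2, and with slide as a block the 6 became 3. Between the subsets 2 were higher and 5 lower in F4/80high TAMs, beside 18.6% and 14.0% of all genes. The list's median difference there was -0.23, beside 0.08 for all genes. With the replicate number as a block 1 was higher. The 5 became 3 without F4/80high replicate 2 or 3 or without F4/80low replicate 1 or 2. Centring on the median changed the 5 to 0, while it moved the median of all genes from 0.08 to 0.40.

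*Gpx4*, which reduces lipid hydroperoxides, was at 7.27, 7.03 and 7.34 in PECs, 5.35, 5.03 and 4.56 in F4/80high TAMs and 6.36, 5.89 and 6.05 in F4/80low TAMs. It fell by 2.23 and 1.11 (limma adjusted p = 5.32e-05 and 0.00362). *Cat*, the catalase of peroxisomes, fell by 2.09 and 0.98 (limma adjusted p = 0.0001 and 0.00835). *Gpx1*, a glutathione peroxidase, fell by 1.52 in F4/80high TAMs (limma adjusted p = 0.00171) and differed by -0.59 in F4/80low TAMs (limma adjusted p = 0.109). *Prdx1*, a peroxiredoxin, differed by -1.0 in F4/80high TAMs (limma adjusted p = 0.0707) and fell by 2.07 in F4/80low TAMs (limma adjusted p = 0.00317). Among the falls lost in F4/80low TAMs were those of *Cat* (-0.50, limma adjusted p = 0.223), *Prdx1* (-1.24, limma adjusted p = 0.119) and *Gpx4* (-1.17, limma adjusted p = 0.052), given here within slide 1. *Sod2*, which is not on this list, was thus higher in both TAM subsets in which 8 and 6 of these 13 genes fell. *Prdx4*, a peroxiredoxin of the endoplasmic reticulum chosen after its values were seen, was the 1 gene that rose in F4/80high TAMs (0.55, limma adjusted p = 0.0395). In F4/80low TAMs it fell by 0.54 (limma adjusted p = 0.0415), and the subsets differed by 1.09 (limma adjusted p = 0.00265). The rise missed the threshold whichever PEC or F4/80high array was left out.

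**Figure D3:**
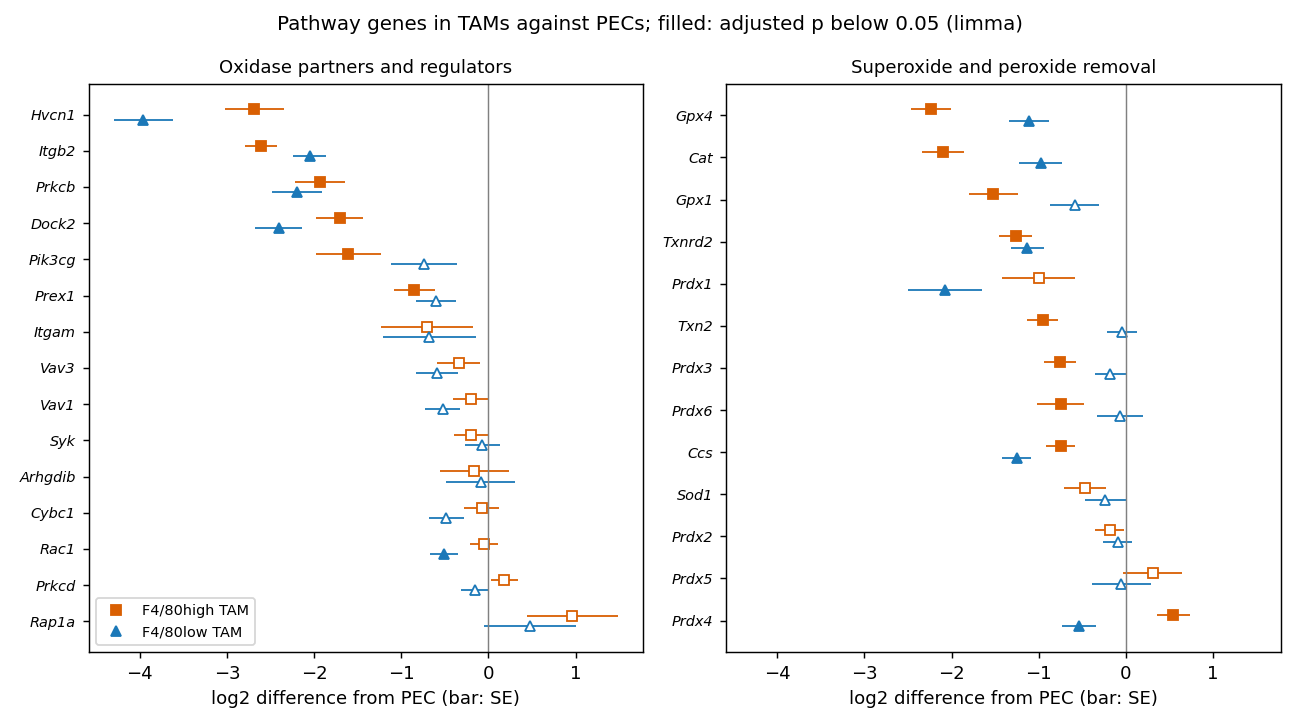
Log2 difference from PECs, with its SE, of oxidase partners and regulators (1 gene of the list is not shown) and of the genes for superoxide and peroxide removal in F4/80high and F4/80low TAMs, filled where the limma adjusted p is below 0.05. *Hvcn1* lies farthest left in F4/80low TAMs (-3.96), and *Prdx4* is the gene with filled points on both sides of 0 (0.55 and -0.54).

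Of 9 genes of other NADPH oxidases, 1 was tested. *Duoxa1*, a maturation factor of dual oxidases, was above background on all F4/80low arrays and on no array of the other groups, and was at least 5.65-fold higher in F4/80low TAMs than in PECs and at least 4.75-fold higher than in F4/80high TAMs. It entered the test through the F4/80low arrays, the group where it was high, which fixed the direction, so its p-values are not given. The bound uses the lowest signal well above background on an array and is approximate. Of 2 peroxidases, *Mpo*, the granule enzyme of neutrophils that makes hypochlorous acid, was tested. It was at 7.06, 0.83 and -1.55 on the F4/80low arrays and not above background in PECs, which gave a bound of at least 25.4-fold over PECs, and of at least 4.57-fold without replicate 1, which stood far above the other F4/80low arrays. In F4/80high TAMs *Mpo* was above background on 2 of 3 arrays (mean -1.79), and the TAM subsets overlapped. *Mpo* too entered the test through the F4/80low arrays, and no p is given. The bound without replicate 1 was added after seeing the data.

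Neutrophils express the same oxidase, so their markers are set beside the members. Of 16 neutrophil markers on the array, 7 were above background on all PEC arrays, 7 on all F4/80high arrays and 14 on all F4/80low arrays. The summed marker level was 7.04 to 7.43 in PECs, 7.85 to 8.40 in F4/80high TAMs and 13.06, 11.22 and 10.93 in F4/80low TAMs. Most of the sum in PECs and F4/80high TAMs came from *Csf3r* (means 6.98 and 7.79), which was at 7.78 in F4/80low TAMs. Of 14 markers tested, 11 were higher in F4/80low TAMs than in PECs, beside 22.7% of all genes. Some of these entered the test through the F4/80low arrays. *Elane*, *Mmp8* and *Padi4* did not pass in that comparison. The calprotectin gene *S100a8* was at 10.38, 8.79 and 8.46 on the F4/80low arrays and between 0.96 and 4.22 on the others. All 6 members had their highest F4/80low level on replicate 1, the array with the highest marker sum. On replicate 3, the array with the lowest sum, 5 of 6 had their lowest. On the F4/80high arrays 4 of 6 members were highest on replicate 1 and 5 of 6 lowest on replicate 3. There the marker sum was highest on replicate 1 (8.40) and lowest on replicate 2 (7.85). How many of all genes follow these orders was not determined. *Cybb* and *Cyba* were lower, and *Rac2* higher, in F4/80low TAMs, the group with the higher marker sums. The T cell markers above background on all arrays numbered 4, 5 and 10 of 10 in PECs, F4/80high and F4/80low TAMs, and B cell markers 0 of 4 in each group. The summed T cell level was highest in PECs (6.23 to 6.59), with 4.44 to 4.53 in F4/80high and 5.00 to 6.16 in F4/80low TAMs. Most of the PEC sum came from *Il7r* (mean 6.22), with *Cd4* next (2.55). *Cd3d*, *Cd3g*, *Cd8a* and *Thy1* were above background on no PEC array and on all F4/80low arrays. NK cell markers summed to 3.10 to 3.40 in PECs, 3.26 to 3.57 in F4/80high and 4.70 to 5.03 in F4/80low TAMs. Dendritic cell markers summed to -1.09 to -0.24, 5.12 to 5.45 and 5.06 to 6.31 in the same order. Of these, 0, 2 and 2 of 6 were above background on all arrays. The dendritic sums in TAMs were mostly *Ccr7* (means 5.20 in F4/80high and 5.43 in F4/80low TAMs). The part of other cells in the members' levels was not tested.

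**Figure D4:**
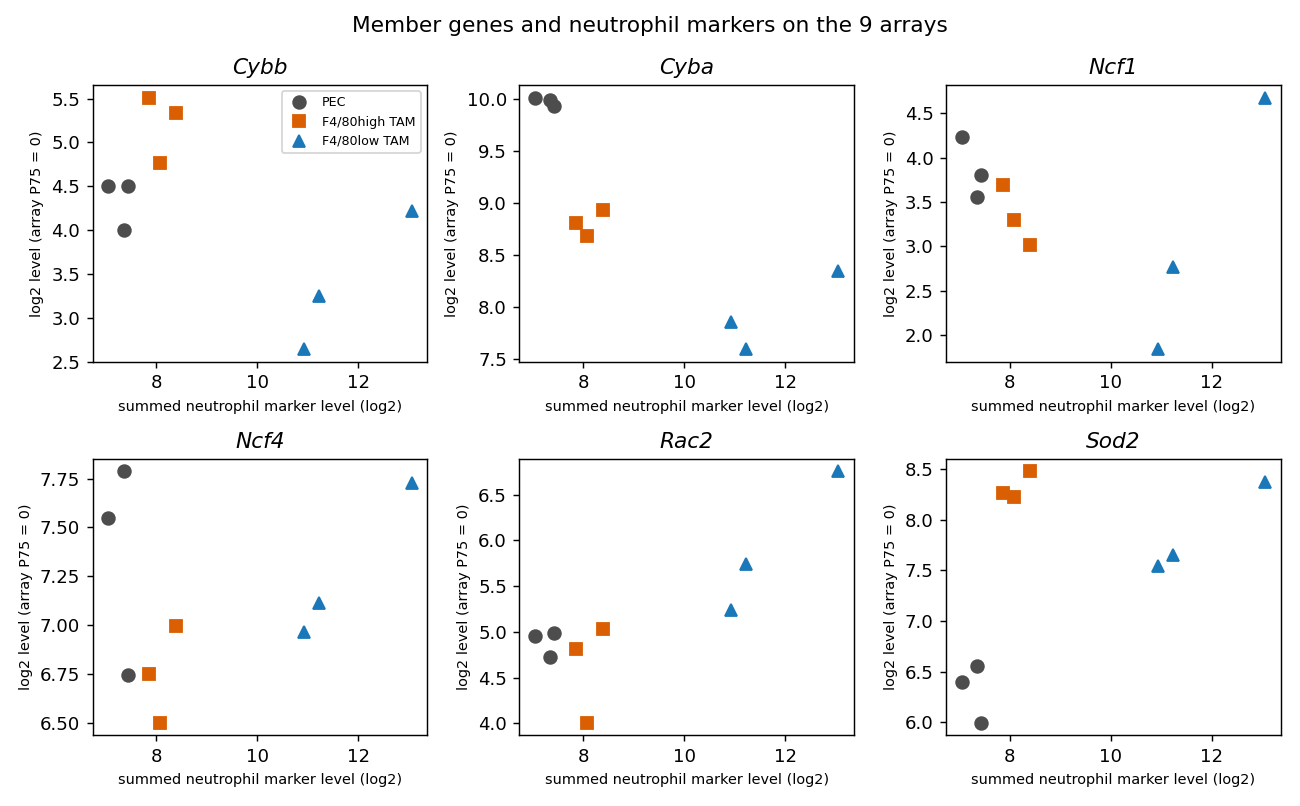
Level of each of the 6 genes (log2 intensity, array's 75th percentile at 0) against the summed level of the neutrophil markers (log2) on the 9 arrays. The F4/80low arrays lie at 10.93 to 13.06, to the right of all others, and within them every gene is highest at the array with 13.06.

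The genes whose levels ran most like a member's over the 9 arrays are given as descriptions. The arrays share 3 groups and a pair of slides and are not independent points, so no p is given. For *Cybb* they were *Dram1*, *Nmral1* and *Rnaset2a* (Pearson r = 0.97, 0.97 and 0.97), with 55 of 16450 other genes above 0.9. For *Cyba* they were *Wls*, *Mrps15* and *Sft2d1* (r = 0.99, 0.99 and 0.99), with 890 above 0.9. For *Ncf1* they were *Dynlt1c*, *Sri* and *Tmem63a* (r = 0.97, 0.96 and 0.95), and for *Rac2* they were *Dgat1*, *Cdkn2c* and *Acat1* (r = 0.98, 0.97 and 0.96). For *Sod2*, *Gpr84* and *Gm3430* led (r = 0.99 and 0.99), with 607 genes above 0.9. For *Ncf4* a pair of transcripts without a symbol led (r = 0.96 and 0.96), followed by *Ndufb9* (r = 0.95). *Cyba* and *Sod2* had the most genes above 0.9, and *Ncf1* the fewest, 11.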

How the data were processed

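The deposited scanner files hold, per the file headers, the background-subtracted linear intensity of each spot (Agilent Feature Extraction 10.5.1.1). The value table that was deposited covers 9703 spots on a log2 scale; that scale was read from the values (column medians 8.26 to 8.35), and its normalization is not given in the sources used here, so it served as an alternative. Levels are log2 intensities minus the 75th percentile of an array's spots other than controls. Control spots and spots with an outlier mark (103 to 307 per array) were left out, and spots of 1 probe were averaged. Kept were the 21197 probes that exceeded background clearly on all 3 arrays of 1 group or more, with the brightest taken for each gene. Probes took the current symbol where an accession matched the RefSeq gene table (26413 probes, 3093 renamed) and otherwise kept the file's name (29268 probes). The comparisons used lmFit and eBayes of limma 3.58.1 under R 4.3.3, all 9 arrays in a single fit, two-sided, with Benjamini-Hochberg adjustment over 16462 genes within each comparison at 0.05. The median standard error was 0.236; precision is limited by how few arrays there are. The procedure was tested on simulated data.

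Named are all members, up to 4 genes per pathway list with the largest difference past the threshold, the 3 genes most correlated with each member, *Adgre1* and cell type markers. The members and lists were chosen with earlier results of these data known. Residuals of same-numbered TAM arrays of the F4/80high and F4/80low subsets correlated (0.23, 0.17 and 0.13 across genes), at most 0.02 for different numbers. A replicate block that pairs the TAM arrays was therefore run as an alternative. The main fit held no block, so the tests between subsets are unpaired unless a block is named. The pairing comes from the data, since the labels give only the number. PEC numbers did not pair (-0.10 to 0.09). Slide came from the file headers. For 1 gene of the oxidase partner list, which is counted in that list, single values are not reported here. Alternatives were background correction, normalization, centring, the filter on dim probes, the probe rule, groups in the fit, slide, replicate block, the value table and leaving out each array.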

Additional observations from a re-analysis of the deposited data

Results flagged for a closer look

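These genes differed between F4/80high and F4/80low TAMs by limma's test of the difference itself, so that their differences from the shared PEC arrays were unequal in the subsets. Among the members, *Cybb* differed by 1.83, *Cyba* by 0.88 and *Rac2* by -1.30 (log2, F4/80high minus F4/80low). Of the partners, *Hvcn1* differed by 1.27 (limma adjusted p = 0.0189) and *Itgb2* by -0.56 (limma adjusted p = 0.0472). Of the genes for peroxide removal, *Gpx4* differed by -1.12 (limma adjusted p = 0.00554), *Cat* by -1.11 (limma adjusted p = 0.00698), *Gpx1* by -0.94 (limma adjusted p = 0.0313) and *Prdx4* by 1.09 (limma adjusted p = 0.00265). With median centring *Gpx4* (-0.80, limma adjusted p = 0.0663), *Cat* (-0.80, limma adjusted p = 0.0873), *Gpx1* (-0.62, limma adjusted p = 0.155) and *Itgb2* (-0.24, limma adjusted p = 0.535) missed the threshold. *Itgb2* also missed it with normexp (limma adjusted p = 0.0633), without a filter (limma adjusted p = 0.0946), with only both TAM groups in the fit (limma adjusted p = 0.063) and with the replicate block over all arrays (limma adjusted p = 0.0773) or over the TAM arrays (limma adjusted p = 0.07). *Cat* missed it with the mean over its probes (-0.62, limma adjusted p = 0.11). Without F4/80high replicate 1 *Hvcn1* missed it (0.96, limma adjusted p = 0.0618), as it did without F4/80low replicate 2 (1.22, limma adjusted p = 0.0538) or 3 (1.00, limma adjusted p = 0.0587) and without a filter (limma adjusted p = 0.0513). *Gpx1* missed it without F4/80high replicate 2 (-0.88) or 3 (-0.77), without F4/80low replicate 1 (-0.76) or 2 (-1.0) and without a filter (limma adjusted p = 0.0767). *Itgb2* missed it without any 1 of the arrays other than PEC replicate 1 and F4/80low replicate 3. Beyond leaving out each array in turn, no test for outlying arrays was run.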

How the results depend on the processing

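Over 351 alternative values of the members' differences, 323 kept their direction where called and their side of the threshold, 21 passed where the value given did not, 7 missed it and 0 called values changed sign. All calls of *Cyba*, the *Cybb* call between subsets and the *Sod2* calls against PECs held under every alternative run. The replicate block over the TAM arrays changed no member's call. With the block over all 3 groups, F4/80low TAMs minus PECs passed for *Cybb* (-0.96, limma adjusted p = 0.0436) and *Rac2* (1.02, limma adjusted p = 0.023). *Cybb* against PECs also passed in F4/80high TAMs with the value table (0.86) and with only the compared groups fitted (0.87), and in F4/80low TAMs with median centring (-1.44, which is -0.87 relative to the median gene) and normexp (-1.10). *Ncf4* passed in F4/80high TAMs against PECs with the value table (-0.84), normexp (-0.80) and quantile normalization (-0.87), and between subsets with the value table (-0.61). *Rac2* between subsets missed the threshold with median centring (-0.98, or -1.38 relative to the median gene), without a filter (-1.30) and with only the compared groups fitted (-1.30), and against PECs in F4/80low TAMs passed with the value table (1.15) and quantile normalization (1.18). The causes were not tested. *Ncf1* was not analysed here in the value table, and slide settings could not be fitted between the subsets, which share slide 1. Leaving out 1 array gave *Cybb* 0.70 to 1.09 (F4/80high against PECs) and -1.39 to -0.60 (F4/80low against PECs), *Ncf1* -1.56 to -0.14 (F4/80low against PECs) and -0.39 to 1.03 (between subsets), *Ncf4* -0.92 to -0.40 (F4/80high against PECs), *Rac2* 0.60 to 1.36 (F4/80low against PECs) and -1.63 to -0.88 (between subsets) and *Sod2* 0.31 to 0.73 (between subsets).

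Of all genes, those higher in F4/80high TAMs than PECs went from 4120 to 2741 with the value table, 2714 with slide blocked and 2408 on slide 1 alone, and those lower from 4617 to 2917 and 2486 under the same slide settings. In F4/80low TAMs those higher went from 3743 to 1931 with median centring, 9644 without a filter, 2199 with slide blocked and 1943 on slide 1 alone, and those lower from 4799 to 2705 and 2184 with the slide settings. Between subsets those lower went from 2304 to 1292 with median centring. Oxidase partners higher in F4/80high than F4/80low TAMs went from 1 to 3 (value table, median centring, normexp), 2 (each probe, mean of probes) or 0 (no filter), and those lower from 2 to 1 with median centring, no filter, normexp, only the compared groups and both replicate block fits. Partners lower in F4/80low TAMs than PECs went from 6 to 12 with median centring and 11 with normexp. Removal genes higher in F4/80high than F4/80low TAMs went from 2 to 1 with the value table, no filter, only the compared groups, quantile normalization and both replicate block fits, and those lower from 5 to 8 (value table), 0 (median centring) or 3 (no filter). The 1 removal gene higher in F4/80high TAMs than PECs became 0 with the value table, median centring, no filter, normexp, the replicate block over all 3 groups and both slide settings, those lower there went from 8 to 4 within slide 1, and those lower in F4/80low TAMs from 6 to 3 with slide blocked and 2 on slide 1 alone. Leaving out 1 array, partners ranged from 0 to 2 higher and 1 to 3 lower between subsets, 0 to 1 higher in each TAM subset against PECs and 5 to 10 lower in F4/80low TAMs, and removal genes from 1 to 3 higher and 3 to 6 lower between subsets and 0 to 1 higher in F4/80high TAMs against PECs.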
